A study of Magallana hongkongensis with 2 samples.

Results

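Copper-dependent oxidases and hydroxylases of the Hong Kong oyster gill were examined in 2 sequencing libraries. The group holds 24 of the 21226 assembled transcripts ("unigenes") listed in either library. Unigene0016956, described as DBH-like monooxygenase protein 1, prompted the group: it was selected on its large ratio between the libraries. The other members were added by the words of their description (DBH-like monooxygenase, dopamine beta-hydroxylase, tyramine beta, tyrosinase, laccase or peptidyl-glycine alpha-amidating). The ratio of Unigene0016956 is therefore a description and supports nothing. By description, 5 unigenes were DBH-like monooxygenases, 2 were tyramine beta-hydroxylases, 4 were peptidyl-glycine alpha-amidating monooxygenases, 7 were laccases and 6 were tyrosinases. The words for dopamine beta-hydroxylase matched 0 of the listed descriptions.

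Dopamine beta-hydroxylase (DBH), its invertebrate relative tyramine beta-hydroxylase and peptidyl-glycine alpha-amidating monooxygenase (PAM) form a family of enzymes that use copper, ascorbate and oxygen to add a hydroxyl group to a substrate. DBH makes noradrenaline from dopamine in vertebrates, tyramine beta-hydroxylase makes octopamine from tyramine in insects, and PAM gives many neuropeptides the amide at their end that they need for activity. The DBH-like monooxygenase MOXD1 of mammals has the same fold, lies in the endoplasmic reticulum and has no established substrate. Tyrosinases and laccases are copper oxidases of phenols; tyrosinases make melanin precursors and are known from the shell-forming mantle of bivalves, and laccase 2 hardens the cuticle of insects. In bivalve gills, the amines serotonin and dopamine act on the beating of the cilia.

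Both groups are adult wild diploid Crassostrea hongkongensis whose sex was not determined, acclimated for 2 weeks and fed microalgae. The control group stayed at 23 °C, and the other group spent 1 h in seawater at 37 °C before going back to 23 °C; how long after the return the gills were taken is not stated in the labels. Polyadenylated gill RNA of each group went into 1 library. The labels state that 10 oysters were pooled for the heat-shocked group and give no number for the control group. In a pooled bulk library, fewer cells of a type and less RNA per cell cannot be told apart.

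In units of 1000 uniquely mapped reads, the libraries held 3925 (control label) and 4173 (heat shock label), with medians of 46 and 54 reads per listed unigene. Heat shock transcripts went against the labels. Heat shock protein 70 B2 (Unigene0016013), an inducible chaperone, had 19995 reads under the control label and 321 under the heat shock label, and heat shock protein 90 (Unigene0015010) had 54239 and 3478. The libraries are therefore called the control-labelled and the heat-labelled library, and a direction below is one between these labels. Ciliary markers were 73 unigenes of tektin, axonemal dynein heavy chains and radial spoke proteins. They summed to 10123 and 12292 CPM (read counts scaled to the library total) in the control-labelled and the heat-labelled library. This was the highest sum of the marker lists. CPM takes no account of unigene length and the lists differ in size, so the sums do not rank cell types. Summed levels of the other marker lists were 1150 and 1406 CPM for muscle (17 unigenes), 7461 and 9318 for hemocytes (91), 3154 and 3677 for gonad (80), 1397 and 1562 for digestive gland (35), 1472 and 1592 for nerve (31), 882 and 894 for mantle and shell (26) and 78.7 and 49.1 for food algae (3). The words for the hemocyte and gonad lists also caught disintegrins, integrin-binding proteins and spermatogenesis-associated proteins, which many tissues express. Of the hemocyte list's reads, 19126 and 27045 came from 1 unigene, Extracellular superoxide dismutase [Cu-Zn] (Unigene0026308). The words cavortin, twitchin, synapsin and photosystem matched 0 descriptions. For hemocytes, cavortin had been listed together with extracellular superoxide dismutase [Cu-Zn], which did match. The part of cell composition in the results below was not tested.

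A ratio is the level in the heat-labelled library over that in the control-labelled library, scaled to library totals, with an exact conditional binomial 95% interval that covers counting error only. There is no replicate in either group, so no p-value is given. To be called higher or lower, a unigene needed 20 or more reads over both libraries, a 2-fold or larger difference and an interval without 1. Of all 17364 unigenes with at least 20 reads, 3.97% (690) were called higher and 3.25% (564) lower in the heat-labelled library. With edgeR's TMM factors in place of the totals, these counts were 406 and 758. The median log2 ratio of all these unigenes was 0.17 with totals and 0.00 with TMM factors, so a ratio near 1 lies slightly under the middle of the data. Among the members, 12 of 24 had at least 20 reads, and they held 99.4% of the members' reads in the control-labelled and 99.7% in the heat-labelled library. Of these 12, 1 was called higher and 1 lower. The calls were Unigene0016956, which prompted the group, and a short laccase unigene. The intervals of 4 of the 12 excluded 1, beside 31.96% of all 17364, and those of 6 did with TMM factors. The median log2 ratio of the 12 was -0.05, beside 0.17 for all.

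**Figure D1:**
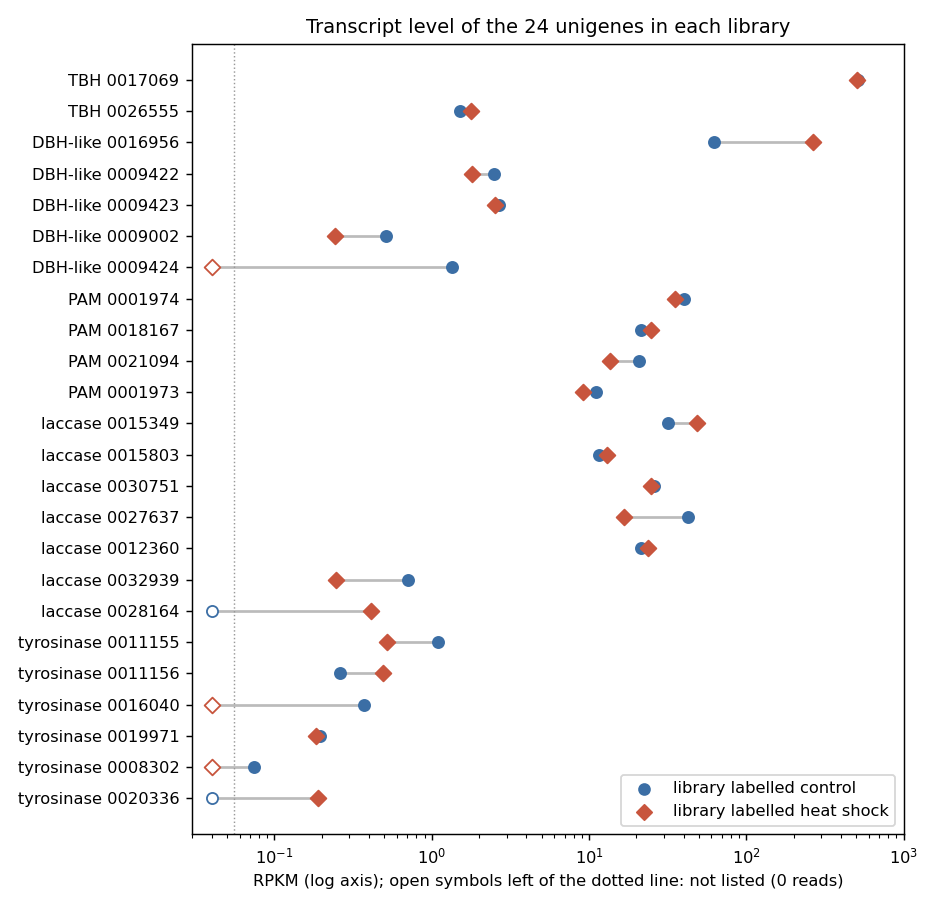
Level of each of the 24 unigenes in RPKM (reads per kilobase of unigene, scaled to the library total, log axis) in the control-labelled library (circles) and the heat-labelled library (diamonds); TBH is tyramine beta-hydroxylase and PAM peptidyl-glycine alpha-amidating monooxygenase, the digits are those of the unigene names, and open symbols mark unigenes with 0 reads in a library. Tyramine beta-hydroxylase Unigene0017069 lies highest, at 516 and 503 RPKM, DBH-like Unigene0016956 lies at 62.3 and 266, and no tyrosinase exceeds 1.103 RPKM.

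The most abundant member was a tyramine beta-hydroxylase, Unigene0017069 (1900 bases). It had 3851 reads in the control-labelled and 3990 in the heat-labelled library, a level of 516 and 503 RPKM (reads per kilobase, scaled to the library total). These levels ranked 157th of 20824 listed unigenes in the first and 145th of 20751 in the second, so its transcript was among the most abundant of the gill in both. Its ratio was 0.975 (0.932 to 1.02), an interval that held 1; with TMM factors it was 0.870 (0.832 to 0.909). The deposited annotation places it in tyrosine metabolism. Reads covered 96.2% and 95.6% of its length. A further unigene with this description, Unigene0026555 (674 bases), had 4 and 5 reads, so nearly all reads of the pair came from 1 unigene.

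The DBH-like monooxygenases were dominated by Unigene0016956 (1935 bases), which had 473 reads in the control-labelled library and 2147 in the other. In RPKM it went from 62.3 to 266, and its rank by level moved from 1669th to 269th. Its ratio was 4.27 (3.86 to 4.73), or 3.81 (3.45 to 4.22) with TMM factors. Reads covered 98.1% and 98.5% of its length, so the reads of both libraries lay along nearly the whole transcript. Set side by side per length, tyramine beta-hydroxylase Unigene0017069 was 8.29 times as abundant as Unigene0016956 in the control-labelled library and 1.89 times as abundant in the heat-labelled one.

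The other DBH-like unigenes, described as DBH-like monooxygenase protein 1-like protein, had at most 13 reads in either library. Unigene0009422 (1329 bases) had 13 and 10 reads, 2.49 and 1.803 RPKM, with a ratio of 0.724 and a wide interval of 0.284 to 1.79. Unigene0009423 (858 bases) had 9 reads in each, Unigene0009002 (992 bases) had 2 and 1, and Unigene0009424 (572 bases) had 3 and 0. A count of 0 allows up to 3 reads, which is 0.764 CPM in the control-labelled and 0.719 in the heat-labelled library. Together these 4 had 27 and 20 reads and a ratio of 0.697 (0.370 to 1.29), without the excess in the heat-labelled library that Unigene0016956 had. Singly, the 3 under 20 reads had too few to show or exclude such an excess. The ratio of Unigene0016956 was 5.90 times that of Unigene0009422 (95% interval 2.37 to 15.1), a quotient that does not depend on the scaling. It does depend on the choice of Unigene0016956 for its large ratio, so it is a description only.

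The 9 reads of Unigene0009423 lay close together. They covered 89 of its 858 bases (10.4%) in the control-labelled library and 128 bases (14.9%) in the heat-labelled one. Among the 627 unigenes of the control-labelled library whose reads per base were within 10% of its own, the median coverage was 35.9%. Its neighbour in number, Unigene0009422, was covered over 37.8% by 13 reads, close to the 34.4% median at its depth. In each library, every unigene with 1 read had 49 covered bases, so 1 read stands for 49 bases here. Unigene0009422, Unigene0009423 and Unigene0009424 have consecutive numbers, and whether they are pieces of 1 gene was not tested.

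**Figure D2:**
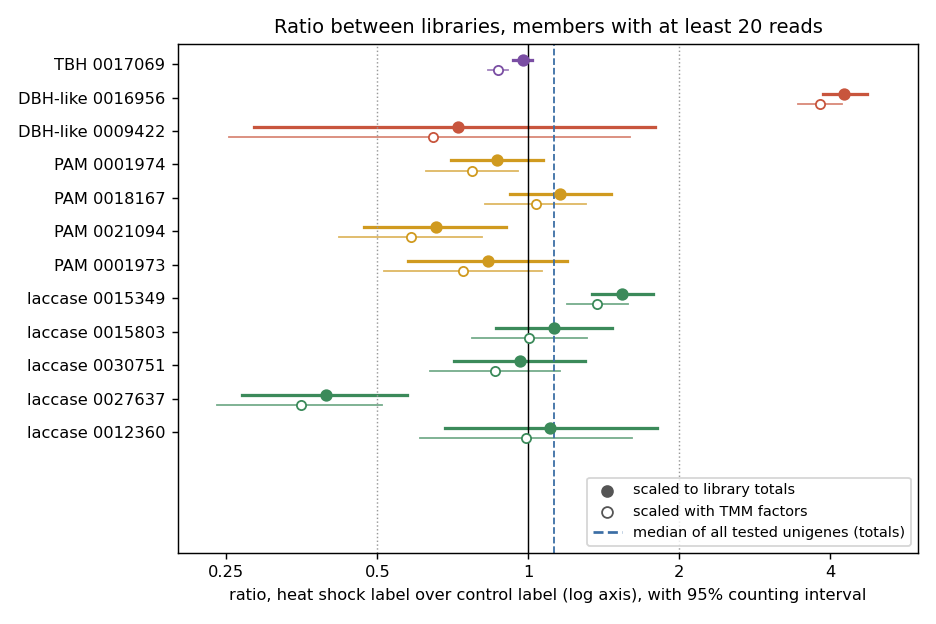
Ratio of each member with at least 20 reads, heat-labelled over control-labelled library (log axis), with its 95% counting interval; filled symbols are scaled to library totals, open symbols with TMM factors, dotted lines mark 0.5 and 2, and the dashed line is the median of all tested unigenes. DBH-like Unigene0016956 stands alone at 4.27, laccase Unigene0027637 lies lowest at 0.395, and 10 of the 12 lie between 0.5 and 2.

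Transcripts of PAM, the peptide-amidating enzyme, came from 4 unigenes, all with at least 20 reads. Unigene0001974 (1192 bases) had 189 and 174 reads, or 40.4 and 35.0 RPKM. Unigene0018167, described as PAM A (1636 bases), had 138 and 170 reads, or 21.5 and 24.9 RPKM. Unigene0001973 (1571 bases) had 68 and 60 reads, or 11.03 and 9.15 RPKM. The ratios of these 3, from 0.830 to 1.16, all had intervals that held 1; with TMM factors that of Unigene0001974, at 0.773 (0.625 to 0.954), did not. Unigene0021094 (1171 bases) was the exception, with 95 and 66 reads, 20.7 and 13.5 RPKM, and a ratio of 0.653 (0.470 to 0.904), under the 2-fold rule for a call. Of the 6 pairs among these unigenes, 1 had ratios that differed beyond counting error: the ratio of Unigene0018167 was 1.77 times that of Unigene0021094 (1.18 to 2.66).

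Summed over its 4 unigenes, PAM had 490 and 470 reads and a ratio of 0.902 (0.793 to 1.03). A unigene spelled Peptidylglycine alpha-hydroxylating monooxygenase (Unigene0016332, with 2142 bases), named after the first of the steps that PAM carries out, was missed by the words of the rule; it was chosen after its values were seen. Its reads numbered 135 and 214, its level was 16.1 and 23.9 RPKM, and its ratio was 1.49 (1.20 to 1.86). With it, the sum came to 625 and 684 reads and the ratio to 1.03 (0.922 to 1.15), so with library totals the side of 1 on which the PAM sum lay depended on this unigene. With TMM factors the sum was 0.805 (0.708 to 0.916) without it and 0.919 (0.823 to 1.03) with it.

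Laccases, the multicopper oxidases, had ratios on both sides of 1. Unigene0015349, a Laccase-2 match (2594 bases), held the most reads of the family, with 322 and 527 reads, 31.6 and 48.7 RPKM, and a ratio of 1.54 (1.34 to 1.77). This was under the 2-fold rule, and the interval excluded 1 also with TMM factors, at 1.37 (1.19 to 1.58). Unigene0027637, a Laccase-24 match (602 bases), went the other way and was called lower. It had 100 reads in the control-labelled library and 42 in the heat-labelled one, 42.3 and 16.7 RPKM, and was 2.53-fold lower in the latter (1.75 to 3.72). By level it was the first of the laccases in the control-labelled library and the fourth in the heat-labelled one.

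The remaining laccases did not differ between the libraries beyond counting error, or had too few reads. Unigene0015803, matched to a laccase of the termite Macrotermes barneyi (2363 bases), had 107 and 128 reads and a ratio of 1.13 (0.864 to 1.47). Unigene0030751 and Unigene0012360, further Laccase-2 matches of 901 and 404 bases, had 91 and 93 reads and 34 and 40 reads, ratios of 0.961 (0.712 to 1.30) and 1.11 (0.683 to 1.802). These 3 intervals held 1 and each also held the median ratio of all unigenes, 1.12. Laccase-1 (Unigene0032939, 2903 bases) had 8 and 3 reads and Laccase-25 (Unigene0028164, 581 bases) had 0 and 1. Both were too low for a ratio.

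Of the 10 pairs among the 5 laccases with at least 20 reads, 6 had ratios that differed beyond counting error. The Laccase-24 unigene was in 4 of these 6, and the ratio of Laccase-2 Unigene0015349 was 3.89 times its own (2.61 to 5.88). The 3 Laccase-2 unigenes did not all go together: Unigene0015349 had a ratio 1.60 times that of Unigene0030751 (1.15 to 2.23), while its quotient to Unigene0012360 was 1.39 (0.835 to 2.30). Summed over all 7 unigenes, laccases had 662 and 834 reads, with a ratio of 1.18 (1.07 to 1.31). This sum rested on Unigene0015349, without which it was 0.849 (0.725 to 0.994), and with TMM factors it was 1.06 (0.954 to 1.17).

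Tyrosinases were barely detected in either library. Their 6 unigenes, all matched to the pearl oyster proteins tyr-1 and tyr-2, had 8 reads in the control-labelled and 5 in the heat-labelled library, summed. No single tyrosinase unigene had more than 3 reads in a library. Unigene0016040, a tyr-2 match of 2051 bases, had 3 and 0, and Unigene0011155, a tyr-2 match of 462 bases, reached the highest level at 1.103 and 0.519 RPKM. Unigene0011156, the tyr-2 match that the deposited annotation places in melanogenesis, had 1 and 2. The summed ratio of 0.588 had an interval of 0.151 to 2.04, so at this depth no difference could be seen. The mantle and shell markers were not all at this floor: 14 of their 26 unigenes had at least 20 reads, while those described as nacrein or mantle protein 10 had at most 5 each. Of the 26, 7 were at 0 reads in the heat-labelled library and 0 were in the control-labelled one.

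The members' reads were divided differently in the libraries. Unigene0016956 held 8.58% of the 5515 member reads of the control-labelled library (exact 95% interval 7.85 to 9.35%) and 28.7% of the 7471 of the heat-labelled one (27.7 to 29.8%). Tyramine beta-hydroxylase Unigene0017069 held 69.8% (68.6 to 71.0%) and 53.4% (52.3 to 54.5%), while its own reads were 3851 and 3990. These shares depend on the reads of Unigene0016956, which was selected on its large ratio. They are therefore no measure of a change in tyramine beta-hydroxylase. All members together took 0.140% of the control-labelled library (0.137 to 0.144%) and 0.179% of the heat-labelled one (0.175 to 0.183%), a ratio of 1.27 (1.23 to 1.32). Without Unigene0016956 the other 23 had 5042 and 5324 reads and a ratio of 0.993 (0.956 to 1.03), or 0.886 (0.853 to 0.921) with TMM factors.

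Quotients between members give a comparison free of the library scaling. Of the 66 pairs among the 12 members with at least 20 reads, 29 had ratios that differed beyond counting error. All 11 pairs with Unigene0016956 did, a count that its choice for a high ratio bears on, and 18 of the other 55. Each of these 18 included Laccase-2 Unigene0015349, Laccase-24 Unigene0027637 or PAM Unigene0021094. Pairs share members and are not independent. The same share was not computed for pairs of other unigenes, so the counts are descriptions only. The ratio of Unigene0016956 was 4.38 times that of tyramine beta-hydroxylase Unigene0017069 (3.92 to 4.90). The smallest quotient was to Laccase-2 Unigene0015349, at 2.77 (2.33 to 3.30).

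**Figure D3:**
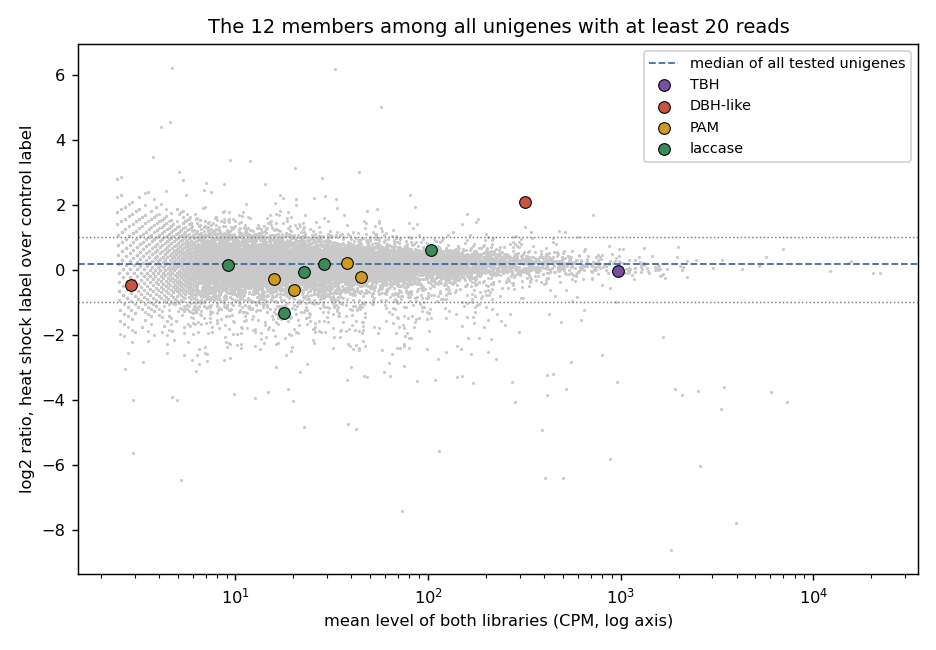
Log2 ratio (heat-labelled over control-labelled library, prior count 0.5) against the mean CPM of both libraries (log axis) for all 17364 unigenes with at least 20 reads (grey), with the 12 members in colour; dotted lines mark a 2-fold difference and the dashed line the median of 0.17. DBH-like Unigene0016956 lies at 2.09, above every unigene with at least as many reads, while tyramine beta-hydroxylase Unigene0017069 lies at -0.04.

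Among abundant transcripts, ratios as high as that of Unigene0016956 were rare. This unigene was selected on its large ratio, so its ranks are descriptions that follow from the choice. It ranked 46th from the top among all 17364 unigenes with at least 20 reads, and 1st among the 409 with at least its own 2620 reads. Of those 409, 7 were called higher and 26 lower. Of the 402 other unigenes with a description and at least as many reads, the nearest in ratio was Cytochrome P450 3A11 (Unigene0008202), a heme monooxygenase, with 1330 and 4584 reads and a ratio of 3.24. Methylenetetrahydrofolate reductase (Unigene0015744), of folate metabolism, followed with 711 and 1910 reads and a ratio of 2.53. Phosphoserine aminotransferase (Unigene0005337), of serine synthesis, had 1146 and 2773 reads and a ratio of 2.28. GTP-binding protein 1 (Unigene0015627) and a UPF0566 protein (Unigene0024526) completed the 5, at 2.26 each. Since Unigene0016956 had the highest ratio of the 409, these 5 are the next highest and not close matches. The interval of the nearest was 3.05 to 3.45 and that of Unigene0016956 was 3.86 to 4.73. Both cover counting error only. Since Unigene0016956 was chosen for its ratio, the gap between them is a description too. The comparison is over 2 libraries only. At the low end, Laccase-24 Unigene0027637 ranked 174th from the bottom of the 8681 unigenes with at least its 142 reads.

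**Figure D4:**
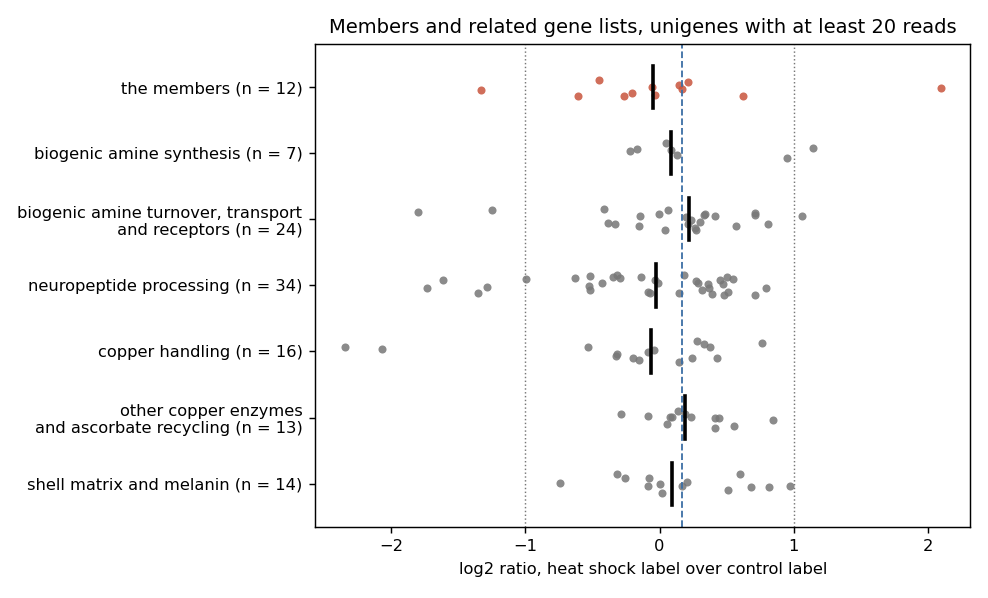
Log2 ratio (heat-labelled over control-labelled library) of each unigene with at least 20 reads in the member group and in the 6 related lists, with the median of each list as a black bar, the median of all tested unigenes (0.17) as a dashed line and 2-fold differences dotted. The medians of the lists lie between -0.06 and 0.22, and 1 member, DBH-like Unigene0016956 at 2.09, lies above every unigene of the related lists.

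Transcripts for making biogenic amines, the pathway in which DBH and tyramine beta-hydroxylase act, held 1 call. Of 7 unigenes with at least 20 reads, 1 was called higher and 0 lower, with a median log2 ratio of 0.08. Aromatic-L-amino-acid decarboxylase (Unigene0031846), which makes dopamine, serotonin or tyramine by removing a carboxyl group, had 298 and 282 reads, 39.3 and 35.0 RPKM, and its ratio was 0.890 (0.754 to 1.05). The call was a GTP cyclohydrolase 1 unigene (Unigene0017684), of the synthesis of the cofactor tetrahydrobiopterin, at 18 and 43 reads and a ratio of 2.25 (1.27 to 4.14). Sepiapterin reductase of the same route (Unigene0017200) had 46 and 42 reads. The words for tyrosine hydroxylase and tryptophan 5-hydroxylase, which start the catecholamine and serotonin routes, matched 0 descriptions.

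Amine turnover and receptors had 1 call in each direction among 24 unigenes, and a median of 0.22. A unigene of the Alpha-1A adrenergic receptor (Unigene0026147, 712 bases) had 70 and 21 reads, 3.54-fold lower in the heat-labelled library (2.15 to 6.08), and was called. Monoamine oxidase A (Unigene0010779), which breaks amines down, had 40 and 75 reads and a ratio of 1.76 (1.19 to 2.66), and an Amiloride-sensitive amine oxidase, itself a copper enzyme (Unigene0009592), had 39 and 31. The higher call was an Alpha-2A adrenergic receptor (Unigene0019760), at 11 and 25 reads, a gene picked once its values were known. In the list of words for neuropeptide processing, calls went in a single direction: 0 of 34 unigenes higher and 5 lower, with a median of -0.03. Of all unigenes, 3.97% were called higher and 3.25% lower. The words FMRFamide and neuropeptide Y matched 17 and 6 of the 47 listed unigenes, so the list does not describe processing enzymes alone. Of the 5, 4 were FMRFamide receptors, caught by the word although they process no peptide; Unigene0002212 had 96 and 33 reads, Unigene0019146 had 99 and 41, and Unigene0002210 had 168 and 73. The fifth was a Carboxypeptidase D unigene (Unigene0006138), at 26 and 8 reads, likewise picked once its values were known.

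The copper handling list, of copper transporters, copper chaperones and metallothioneins, held 2 calls, both metallothioneins. Both were lower, among 16 unigenes with a median of -0.06. Metallothionein IV (Unigene0024634) had 83 and 17 reads and a metallothionein (Unigene0030375) had 206 and 52, 5.19-fold (3.05 to 9.33) and 4.21-fold (3.09 to 5.82) lower in the heat-labelled library; a further metallothionein (Unigene0027954) had 349 and 257. These proteins bind copper, zinc and cadmium. Among 13 other copper enzymes none was called in either direction, and the median was 0.19. Ceruloplasmin (Unigene0014713), a copper ferroxidase, had 605 and 527 reads, and Lysyl oxidase-like protein 2, which cross-links collagen, had 98 and 153 in Unigene0019281 and 49 and 71 in Unigene0020403. In the shell and melanin list, none of 14 unigenes was called and the median was 0.09. The words for melanin, phenoloxidase and dopachrome matched 0 descriptions. The list therefore held the same unigenes as the mantle and shell markers and says nothing of melanin synthesis. Among those with at least 50 reads, the farthest from the median of all unigenes were Chitin synthase 8, with 65 and 136 reads in Unigene0010544 and 27 and 51 in Unigene0010545, and a Perlucin lectin (Unigene0021841) with 60 and 38. With TMM factors the median of each list was lower by 0.16, which put those of the amine synthesis and the shell and melanin lists on the other side of 0, at -0.08 and -0.07.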

How the data were processed

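Gill RNA of 2 groups, 1 library each, was analysed from the deposited tables. Per the file headers, the authors' counts are uniquely mapped reads per unigene, not normalized, beside the deposited coverage in percent of the unigene length and the deposited RPKM, which equalled count over length and library total to within a relative difference of 5.01e-15. CASAVA 1.4 and cutadapt 1.8.1 are named, per the submitters' processing notes; aligner and assembly: not given in the sources used here. Unigenes absent from a library's table counted as 0 reads there. Reads that map to several near-identical unigenes are not in unique counts, so copies can lose reads.

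Members and lists were chosen with earlier results of these data known. Ratios, exact intervals and calls were computed in Python 3.11.15 with scipy 1.17.1, after a check on simulated counts; quotients between members are conditional odds ratios. edgeR 4.0.16 and DESeq2 1.42.0 gave the TMM and median-of-ratios scalings only. No test was run, because each group has 1 library. Intervals and floors cover counting error only and treat each read as independent. PCR copies are not independent molecules, so the intervals can be too narrow. Named genes are all members with at least 20 reads, the 3 unigenes of each list with at least 50 reads whose log2 ratio lay farthest from the median, and the 5 unigenes nearest to Unigene0016956 in ratio. Other genes named were picked once their values were known. Sequences were not used here.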

Additional observations from a re-analysis of the deposited data

How the results depend on the processing

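Unigene0016956 was called higher under all 8 settings tried. It was chosen for its large ratio and the settings reuse the same counts, so this is a description and supports nothing. Laccase-24 Unigene0027637 was called lower under 7, all but a ratio of at least 4. The counts of 1 member called higher and 1 called lower came to 2 and 2 with a ratio of at least 1.5, which added Laccase-2 Unigene0015349 and PAM Unigene0021094, and to 1 and 0 with a ratio of at least 4. Counts over all unigenes were 406 higher with TMM factors and 405 with the median of ratios, 196 higher and 312 lower with a minimum of 100 reads, 1851 and 992 with a ratio of at least 1.5, 55 and 141 with one of at least 4, and 315 higher with the stricter interval planned. The median log2 ratio of the members was -0.21 with TMM factors and -0.21 with the median of ratios, since both shift every ratio alike. Of the 12 ratios of members, 2 left their own interval with TMM factors, those of Unigene0016956 and Unigene0017069, at 3.81 and 0.870. Summed reads had ratios with TMM factors of 1.14 for all members, 3.64 for DBH-like monooxygenases, 0.870 for tyramine beta-hydroxylases, 1.06 for laccases and 0.805 for PAM, whose interval then excluded 1. Without the most abundant unigene of each, they were 1.97, 0.697, 1.18 (4 and 5 reads) and 0.849, so the DBH-like and the laccase sums each rest on 1 unigene. Added after the data were seen, all members without Unigene0016956 came to 0.993, and PAM with Unigene0016332 to 1.03. No paired analysis was possible because each group has 1 library. Depth limits the 6 tyrosinases, 3 DBH-like unigenes, 2 laccases and 1 tyramine beta-hydroxylase, all under 20 reads, to counts without a ratio.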

Other observations

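The deposited pathway annotation gives a view of tyrosine use beyond the lists above, chosen after the data were seen. It is not separate from the members: tyrosine metabolism includes 2 of them, Unigene0017069 and Unigene0011156, and melanogenesis includes 1, Unigene0011156. Of 20 unigenes placed in tyrosine metabolism with at least 20 reads, 0 were called higher and 1 lower in the heat-labelled library, with a median log2 ratio of 0.09. The lower one was 4-hydroxyphenylpyruvate dioxygenase (Unigene0016296), an enzyme of tyrosine breakdown, with 181 and 75 reads, 2.57-fold lower (1.95 to 3.40). Of 82 unigenes placed in melanogenesis, 2 were called higher and 2 lower.

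A monooxygenase without copper also had a high ratio and was chosen after its values were seen. Flavin-containing monooxygenase FMO GS-OX3 (Unigene0033243) had 61 and 162 reads, a ratio of 2.50 (1.85 to 3.41).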
